A study of Mus musculus with 11 samples.

Results

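The genes described here are 42 named genes of the cell division cycle, 22 that act in mitosis and 20 that act in DNA replication and its control, out of 54232 genes in the count table of 11 mouse pancreatic tumours. They were taken from the table by gene symbol, after the Ensembl identifiers were matched to symbols with GENCODE M21. No threshold on a measured value picked them, but the list was drawn up with earlier results of these data known. All 42 passed the filter on low counts that left 16536 genes for testing. Bulk RNA sequencing had been run on 6 tumours whose hosts had lost protein kinase N2 (PKN2) by an induced deletion (KO, tumours A to F) and on 5 tumours from wild-type hosts (WT, tumours A to E). Each tumour grew from 1000 TB32048 cells, a pancreatic carcinoma line from a female mouse, placed in the pancreas in Matrigel, and these cells kept intact PKN2 in both groups. The hosts were adult female C57BL/6 littermates carrying 1 copy of Rosa26-CreERT2, a Cre recombinase made in all cell types and switched on by tamoxifen. KO hosts were Pkn2 fl/fl, WT hosts were Pkn2 +/+, and both received the same tamoxifen, so that Cre and the drug were common to the groups. The deletion was therefore aimed at host cells of every kind, among them the normal pancreas around the tumour, and not at the fibroblasts alone. Its extent in each cell type was not measured here. The comparison asks whether expression of the division genes in the whole tumour differed with the genotype of the host.

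Cells that divide copy their DNA in S phase and separate the copies in mitosis. Before S phase the MCM complex, the replicative helicase, is loaded onto DNA by Cdc6 and Cdt1, is activated together with the GINS complex, and is followed by polymerases held on by the Pcna clamp. The transcripts for these proteins are raised around the G1/S boundary, largely by E2F factors. Transcripts of mitotic genes peak later, in G2 and M, through promoter elements called CHR (cell cycle genes homology region) and CCAAT boxes, bound by the MuvB complex with B-Myb and Foxm1 and by NF-Y. Such genes are widely used as readouts of the share of dividing cells in a tumour. In bulk tissue, fewer dividing cells and less RNA per dividing cell cannot be told apart, and host and carcinoma cells are summed.

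The tumours gave 16294128 counts (WT B) to 31121422 counts (WT E). Ribosomal RNA took 0.308 to 0.739% of the counts in the KO tumours and 0.241% (WT E), 0.765% (WT D), 1.31% (WT A), 1.4% (WT C) and 6.39% (WT B) of those in the WT tumours. Deviations of genes from their mean followed exonic length negatively in WT A, WT B and WT C (Spearman's rho across genes -0.50, -0.45 and -0.17) and positively in the other 8 tumours (0.10 to 0.37). Values without WT A, WT B and WT C are therefore given for many of the genes. In that fit WT D and WT E alone stood for WT. Their own rho with length was 0.27 and 0.37, so that fit is not free of a length trend. Pkn2 itself measured 96.6 ± 9.34 CPM (counts scaled to library size, SD, n = 6) in KO and 96.7 ± 34.7 CPM (n = 5) in WT tumours (log2 fold change -0.002, SE 0.21). The WT tumours A to E held 69.2, 62.9, 84.4, 138 and 128.5 CPM, and the KO tumours 80.1 to 108 CPM. WT A and WT B thus lay under the KO range and WT D and WT E above it. A count over the whole gene takes in reads outside the deleted part and reads from the carcinoma cells, which kept Pkn2, and so does not check the genotypes. Markers of carcinoma epithelium were present in every tumour, with none of 8 at 0.

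Promoter letters are shown here because they describe the mitotic and the replication class without using any expression value. RefSeq windows on GRCm38.p6, from 250 bases before to 50 bases after the annotated start, were found for 33 of the 42 members, 17 mitotic and 16 of replication. Those of Aurkb, Ccna2, Ccne2, Foxm1, Gins1, Gins2, Kif20a, Mcm4 and Tpx2 were not used here. On both strands, CHR was searched as TTTGAA or TTCGAA, the CCAAT box as CCAAT, and E2F as TTTCCCGC, TTTGGCGC or TTTCGCGC. One overlap between different motifs occurred in these windows, an E2F match and a CCAAT box in Mcm7. In the sequences below, written 5′ to 3′ on the strand of the gene up to the base before the RefSeq start, capitals mark CHR letters and CCAAT boxes. The mitotic members shown are those with both inside the last 100 bases and at most 30 bases inside the GENCODE gene.
Cdc20, chr4:118437344-118437443, minus strand: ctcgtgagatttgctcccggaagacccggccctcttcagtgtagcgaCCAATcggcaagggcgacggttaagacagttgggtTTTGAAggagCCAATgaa
Cdk1, chr10:69352913-69353012, minus strand: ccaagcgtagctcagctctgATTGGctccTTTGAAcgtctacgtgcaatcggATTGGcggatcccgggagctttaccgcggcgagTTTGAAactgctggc
Kif11, chr19:37376282-37376381, plus strand: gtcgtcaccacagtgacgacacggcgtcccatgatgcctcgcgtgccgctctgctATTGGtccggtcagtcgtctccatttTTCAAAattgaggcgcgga
Top2a, chr11:99024190-99024289, minus strand: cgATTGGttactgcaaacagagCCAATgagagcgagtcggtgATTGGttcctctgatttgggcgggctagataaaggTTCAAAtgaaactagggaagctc

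Cdc20 activates the anaphase-promoting complex, Cdk1 is the kinase that starts mitosis, Kif11 is the motor that pushes the spindle poles apart, and Top2a untangles sister DNA. In each of the 4 a CHR hexamer lies close before the start, with its first base at -18 (Cdc20), -15 (Cdk1), -19 (Kif11) and -23 (Top2a), and a CCAAT box begins 35, 33, 26 and 35 bases before it. CHR letters were present in 14 of 17 mitotic windows (82.4%; Wilson 95% interval 59.0 to 93.8%) and in 2 of 16 replication windows (12.5%; 3.50 to 36.0%), against 19.4% of all 27025 promoter windows. A CCAAT box was found in 15 of 17 mitotic windows (88.2%) and 9 of 16 replication windows (56.2%), against 37.9% of all. The same 14 mitotic windows held both.

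E2F letters had the opposite distribution. They were present in 7 of 16 replication windows (43.8%; 23.1 to 66.8%) and in 1 of 17 mitotic windows (5.88%; 1.05 to 27%), that of Cdk1, against 1.91% of all windows. Mcm5 and Mcm6, helicase subunits, are shown as the MCM members with E2F letters and CCAAT boxes before the start, chosen with the same limit on bases inside the GENCODE gene. Capitals mark E2F letters and CCAAT boxes, and each window holds a run of 12 capitals that is an E2F match on either strand, sharing 4 bases.
Mcm5, chr8:75109344-75109508, plus strand: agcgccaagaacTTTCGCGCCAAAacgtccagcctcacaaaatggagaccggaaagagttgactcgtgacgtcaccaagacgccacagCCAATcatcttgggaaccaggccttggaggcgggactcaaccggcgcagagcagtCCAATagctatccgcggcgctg
Mcm6, chr1:128359706-128359870, minus strand: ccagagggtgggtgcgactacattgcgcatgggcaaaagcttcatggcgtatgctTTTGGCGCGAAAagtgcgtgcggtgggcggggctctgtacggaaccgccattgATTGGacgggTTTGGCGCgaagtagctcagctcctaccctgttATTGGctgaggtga

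A match of letters is a description of the window and shows neither a bound site nor a cause of any level, and a window without a match says nothing of the factor. Within the 100 bases before the start alone, the shares were 35.3% of mitotic windows for CHR and 6.25% of replication windows for E2F. Of all promoter windows, 6.29% held CHR and 0.692% E2F letters there. The shares fell since many matches lie past the start or further upstream.

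**Figure D1:**
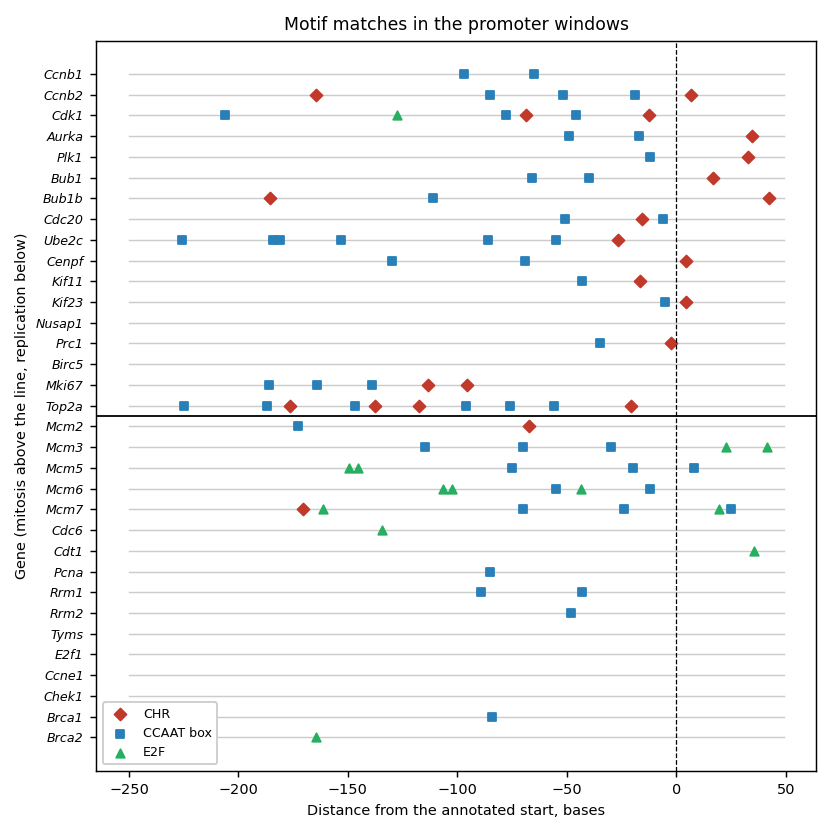
Positions of CHR, CCAAT box and E2F letter matches in the promoter windows of the 33 members with a window, by distance in bases from the annotated start (dashed line), with 17 mitotic genes above the horizontal line and 16 replication genes below it. CHR diamonds are found in 14 mitotic rows and 2 replication rows, and E2F triangles in 1 and 7.

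No member of either class was called higher or lower in KO tumours. None of the 42 members passed an adjusted p of 0.05 in edgeR's quasi-likelihood test, against 0.0181% of all tested genes higher and 0.0% lower in KO, so that the members' count of 0 is the background. The smallest adjusted p was 0.0991, for Gins1. At an unadjusted p under 0.05, 1 member was higher in KO (Mki67, against 8.57% of all genes) and 4 were lower (Birc5, Gins1, Gins2 and Chek1, against 15.5%). None of the 42 had groups that did not overlap, compared with 1.59% of all genes higher and 2.01% lower. The median log2 fold change, KO minus WT, was -0.02 over the 22 mitotic genes (10 positive, 12 negative) and -0.17 over the 20 replication genes (5 positive, 15 negative), beside -0.03 over all tested genes, of which 48.0% were positive and 52.0% negative. Of the 42 members, 36 had a log2 fold change within 0.5 of 0, with standard errors of 0.14 to 0.35. A p that misses the threshold does not show that the levels were alike.

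**Figure D2:**
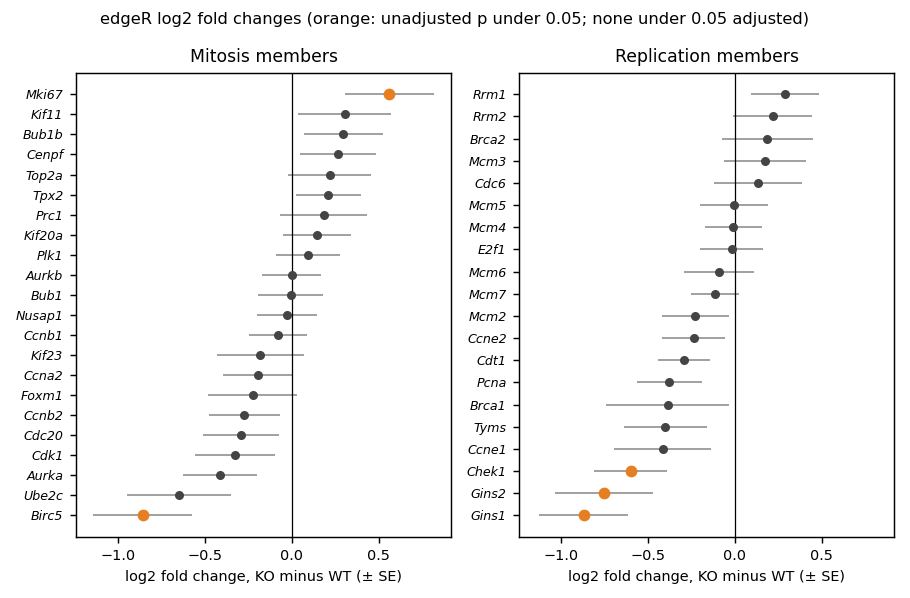
Log2 fold change, KO minus WT, of the 22 mitotic members (left) and the 20 replication members (right), with bars of 1 standard error and n = 6 KO and 5 WT tumours. The mitotic values run from -0.86 (Birc5) to 0.56 (Mki67) and the replication values from -0.87 (Gins1) to 0.29 (Rrm1), and the 5 orange points are the members with an unadjusted p under 0.05.

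Among the mitotic genes, Mki67, which encodes the Ki-67 protein that coats mitotic chromosomes and is the standard stain for dividing cells, had the largest value above 0. It measured 106, 127 and 188 CPM at the lowest, median and highest of the KO tumours. In the WT tumours A to E it measured 67.7, 53.1, 75.4, 127 and 134 CPM. WT A, WT B and WT C lay under every KO tumour, and WT D and WT E inside the KO range. The log2 fold change was 0.56 (edgeR SE 0.26 and adjusted p = 0.203). It was 0.27 without WT A and WT B and 0.06 without WT A, WT B and WT C.

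Top2a, the topoisomerase of mitotic chromosomes, had a KO minimum, median and maximum of 129, 188.5 and 259 CPM. WT tumours A to E gave 134, 97.5, 152, 193 and 243 CPM, with WT B alone under the KO range. Its log2 fold change was 0.22 (edgeR SE 0.24 and adjusted p = 0.591), and it turned to -0.19 without WT A, WT B and WT C. Foxm1, the transcription factor of the G2/M programme, had a log2 fold change of -0.22 (SE 0.26), with 37.6 to 53.3 CPM in KO and 54.8, 49.2, 21.8, 57.3 and 83.8 CPM in WT A to E. It was -0.62 without WT A, WT B and WT C.

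Birc5 (survivin), a subunit of the chromosomal passenger complex, had the largest value below 0 of the mitotic genes. The KO tumours measured 34.4 to 62.3 CPM with a median of 49.4 CPM, and WT A to E measured 145, 122, 72.1, 50.9 and 56.3 CPM. WT A, WT B and WT C stood above every KO tumour, the same tumours that were under the KO range for Mki67, while WT D and WT E were inside it. The log2 fold change was -0.86 (edgeR SE 0.29 and adjusted p = 0.116). Without WT E it was -0.98 and passed (adjusted p = 0.0476), in a comparison where 3.63% of all genes were called higher and 7.46% lower. Without WT A and WT B it was -0.29, and without WT A, WT B and WT C it was -0.12.

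Ube2c, the ubiquitin-conjugating enzyme of the anaphase-promoting complex, had KO values of 50.6, 63.9 and 111 CPM at the lowest, median and highest tumour. WT tumours A to E had 150.6, 171, 126, 60.9 and 66.1 CPM, so that WT A, WT B and WT C were again above all KO tumours. The log2 fold change was -0.65 (edgeR SE 0.30 and adjusted p = 0.209) and turned to 0.21 without those 3 tumours. Of the other members that act on the complex or hold it back, Cdc20 had a log2 fold change of -0.29, Bub1 of -0.01 and Bub1b of 0.30.

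The cyclins and their kinase all had values below 0. Cdk1 was at 56.0, 70.4 and 105 CPM in the lowest, median and highest KO tumour. In WT A to E it was at 143, 104, 108, 67.3 and 71.2 CPM, with WT A and WT C above the KO range. Its log2 fold change of -0.33 (edgeR SE 0.23 and adjusted p = 0.393) turned to 0.19 without WT A, WT B and WT C. Ccnb1, the cyclin that activates Cdk1 in mitosis, differed less between tumours. KO tumours had 48.9 to 75.7 CPM (median 61.7), WT tumours A to E had 67.4, 66.0, 48.0, 72.4 and 76.2 CPM, and the log2 fold change was -0.08 (edgeR SE 0.16 and adjusted p = 0.797). Ccnb2 and Ccna2, further cyclins of this kind, had -0.27 and -0.20.

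Of the kinases, Aurkb and Plk1 had nearly equal group means. Aurkb, the kinase of the chromosomal passenger complex, measured 28.0, 35.2 and 42.02 CPM at the KO minimum, median and maximum and 43.9, 34.0, 24.9, 34.5 and 39.3 CPM in WT A to E. Group means were 35.4 ± 5.02 CPM (SD, n = 6) and 35.3 ± 7.06 CPM (n = 5), and the log2 fold change was 0.00099 (SE 0.17). The sign turned with the ribosomal RNA share as covariate (-0.030), with a block on replicate letter (-0.019) and with single tumours left out. Plk1, which acts on centrosomes, kinetochores and cytokinesis, had 32.2, 43.9 and 48.0 CPM in KO and 49.7, 26.7, 36.9, 35.5 and 44.8 CPM in WT A to E, with a log2 fold change of 0.09 (SE 0.18). Their relative Aurka, which works at the spindle poles, had 26.2, 33.1 and 40.8 CPM in KO and 68.7, 45.9, 37.1, 38.2 and 32.2 CPM in WT A to E. WT A and WT B were above the KO range, and the log2 fold change was -0.41 (edgeR SE 0.21 and adjusted p = 0.248), or -0.072 without WT A, WT B and WT C.

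Of the 8 spindle, kinetochore and midzone genes 5 had positive and 3 had negative values, Birc5 among the latter. Kif11 measured 52.6, 73.6 and 87.1 CPM at the KO minimum, median and maximum. WT A to E measured 52.3, 26.1, 48.7, 75.4 and 90.0 CPM, the first 3 under the KO range and WT E above it. The log2 fold change was 0.30 (edgeR SE 0.27 and adjusted p = 0.499) and -0.19 without WT A, WT B and WT C. Cenpf, a large kinetochore protein, had 0.27, Tpx2, which nucleates spindle microtubules, 0.21, and Prc1, which bundles midzone microtubules, 0.18. The kinesin Kif20a of the midzone had 0.15, the centralspindlin motor Kif23 -0.18 (-0.61 without WT A, WT B and WT C) and the spindle protein Nusap1 -0.03.

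**Figure D3:**
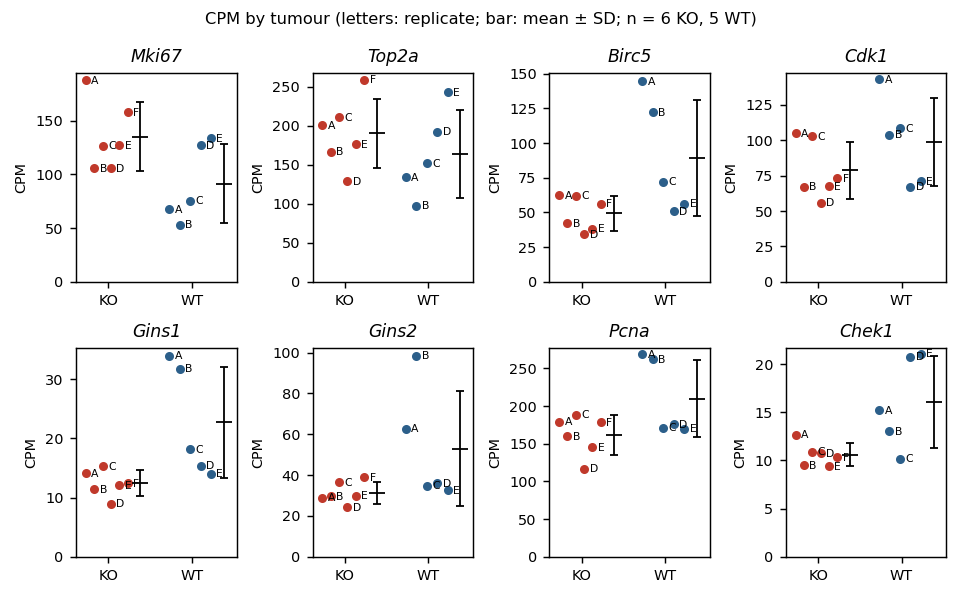
Level in CPM by tumour for 4 mitotic genes (top row) and 4 replication genes (bottom row) in KO (red, n = 6) and WT (blue, n = 5) tumours, with letters for the tumours and black bars for the mean ± SD. WT A, WT B and WT C lie under all KO tumours for Mki67 and above all for Birc5, and no gene shown has groups that do not overlap.

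Of the 20 replication genes, the 3 members with an unadjusted p under 0.05 were 2 GINS subunits and Chek1. Gins1 measured 8.98, 12.3 and 15.3 CPM in the lowest, median and highest KO tumour and 34.0, 31.8, 18.2, 15.4 and 14.1 CPM in WT A to E. WT A to WT D stood above every KO tumour and WT E was inside the KO range. The log2 fold change was -0.87 (edgeR SE 0.26 and adjusted p = 0.0991). DESeq2 gave -0.85 with an adjusted p of 0.0345, where 3.21% of all genes were called higher and 4.85% lower, and edgeR without WT E gave -0.999 (adjusted p = 0.0348). The value was -0.37 without WT A and WT B and -0.24 without WT A, WT B and WT C.

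Gins2, a second subunit of the complex that joins MCM at the fork, had 24.3, 29.8 and 39.0 CPM at the KO minimum, median and maximum. WT A to E had 62.8, 98.5, 34.7, 36.0 and 32.7 CPM, with WT A and WT B above the KO range and the other 3 inside it. The log2 fold change was -0.75 (edgeR SE 0.28 and adjusted p = 0.138), -0.40 without WT B alone and -0.14 without WT A and WT B. Chek1, the checkpoint kinase that answers stalled forks, varied little among the KO tumours. These measured 9.38, 10.5 and 12.7 CPM at the lowest, median and highest, and WT A to E 15.2, 13.0, 10.2, 20.8 and 21.1 CPM. All WT tumours but WT C were above the KO range. Its log2 fold change of -0.60 (edgeR SE 0.21 and adjusted p = 0.125) was -0.71 without WT A and WT B and -0.98 without WT A, WT B and WT C (adjusted p = 0.0693).

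Pcna, the sliding clamp, was the most abundant member per length, at 76.5 ± 18.9 CPM per kilobase of exon (SD, n = 11 tumours). In KO tumours it measured 117, 169.5 and 189 CPM at the lowest, median and highest, and in WT A to E 269, 263, 171, 176 and 170.0 CPM. WT A and WT B were above the KO range and the other WT tumours inside it, with a log2 fold change of -0.38 (edgeR SE 0.19 and adjusted p = 0.233). It was -0.095 without WT A, WT B and WT C. The licensing factors Cdt1 and Cdc6 had -0.29 (SE 0.15) and 0.13 (SE 0.25).

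The 6 MCM genes had log2 fold changes within 0.23 of 0 in the fit of all 11 tumours. Mcm5 measured 51.95, 77.4 and 90.6 CPM at the KO minimum, median and maximum and 101, 58.4, 56.4, 69.6 and 87.8 CPM in WT A to E, with group means of 74.5 ± 14.5 CPM (SD, n = 6) and 74.7 ± 19.3 CPM (n = 5). Mcm2 had 64.3, 86.5 and 93.8 CPM in KO and 85.1, 73.2, 77.4, 107 and 150 CPM in WT A to E, with WT D and WT E above the KO range, and a log2 fold change of -0.23 (edgeR SE 0.19 and adjusted p = 0.482). That of Mcm2 ran from -0.32 to -0.025 with each tumour left out in turn. It was -0.37 with a length offset, -0.39 with the ribosomal RNA share as covariate and -0.60 without WT A, WT B and WT C. The log2 fold changes of Mcm3, Mcm4, Mcm6 and Mcm7 were 0.17, -0.01, -0.09 and -0.11, and -0.11, -0.27, -0.38 and -0.22 without those 3 tumours. Levels per kilobase of exon ran from 13.0 ± 3.24 CPM (SD, n = 11) for Mcm2 to 34.1 ± 7.54 CPM for Mcm6. These are RNA levels divided by all annotated exon bases, 6956 for Mcm2 and 4666 for Mcm6. They do not measure the protein subunits, of which the hexamer holds 1 copy each.

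Of the genes for nucleotide supply, the 2 subunits of ribonucleotide reductase had positive values. Rrm2, the small subunit that is made in S phase, measured 90.1, 114 and 164.9 CPM in the lowest, median and highest KO tumour. WT A to E measured 158, 85.2, 101, 88.2 and 70.8 CPM, with WT B, WT D and WT E under the KO range, and the log2 fold change was 0.22 (edgeR SE 0.23 and adjusted p = 0.573). It was 0.57 without WT A, WT B and WT C. Rrm1, the large subunit, had 87.1, 102 and 122 CPM in KO and 84.8, 58.3, 62.9, 104 and 115 CPM in WT A to E. WT A, WT B and WT C were under the KO range, and its log2 fold change of 0.29 (edgeR SE 0.19 and adjusted p = 0.374) was -0.072 without them. Tyms, thymidylate synthase, had 34.15, 43.6 and 50.9 CPM in KO and 68.7, 94.4, 40.3, 41.4 and 41.5 CPM in WT A to E. It was high in WT A and WT B alone, with a log2 fold change of -0.40 (edgeR SE 0.24 and adjusted p = 0.316) that turned to 0.07 without them.

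The G1/S regulators were among the members with low counts. E2f1, the transcription factor of the S phase genes, measured 21.3, 27.3 and 32.8 CPM at the KO minimum, median and maximum and 37.8, 28.5, 22.4, 23.3 and 25.8 CPM in WT A to E, a log2 fold change of -0.02 (SE 0.18). Ccne1, a cyclin partner of Cdk2 at the G1/S boundary, had 8.13, 11.1 and 16 CPM in KO and 18.1, 24.9, 12.8, 8.15 and 12.1 CPM in WT A to E. WT A and WT B were above the KO range, and the log2 fold change was -0.42 (edgeR SE 0.28 and adjusted p = 0.372), or 0.18 without WT A, WT B and WT C. Its paralogue Ccne2 had -0.24. The repair genes Brca1 and Brca2, which protect stalled forks, had -0.39 (SE 0.35) and 0.19 (SE 0.26). Brca1 measured 14.4, 12.85 and 13.0 CPM in WT A, WT B and WT C, under the KO range of 15.0 to 23.8 CPM, and 42.8 and 45.8 CPM in WT D and WT E, above it. With each tumour left out in turn, the log2 fold change of Brca1 ran from -0.55 to -0.07. Without WT A, WT B and WT C it was -1.16 (edgeR adjusted p = 0.0650), the largest in size of the 42 in that fit. There WT D and WT E alone stood for WT.

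One KO tumour was low across both classes. KO D was the lowest KO tumour for 37 of the 42 members (88.1%), 21 of 22 mitotic and 16 of 20 replication genes, and was the lowest KO tumour for 17.4% of all tested genes. Its mean deviation over the members was -0.38 on the log2 scale. The highest KO tumour was KO A for 14 of 22 mitotic genes and KO F for 11 of 20 replication genes, where KO A and KO F were highest for 20.8% and 21.6% of all tested genes. The summed level of the 22 mitotic genes ran from 1120 CPM (KO D) to 1832 CPM (KO A) in KO and from 1318 CPM (WT B and WT C) to 1755 CPM (WT A and WT E) in WT tumours. For the 20 replication genes it ran from 992.5 CPM (KO D) to 1440 CPM (KO F) and from 1061 CPM (WT C) to 1566 CPM (WT A). The groups overlapped in both sums. KO D also had the highest share of ribosomal RNA among the KO tumours (0.739%) and the lowest summed level of 6 T cell markers (64.6 CPM, against 189 to 377 CPM in the other KO tumours), while its 8 carcinoma markers summed to 4281 CPM, inside the KO range. The part of these in its low values was not tested.

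**Figure D4:**
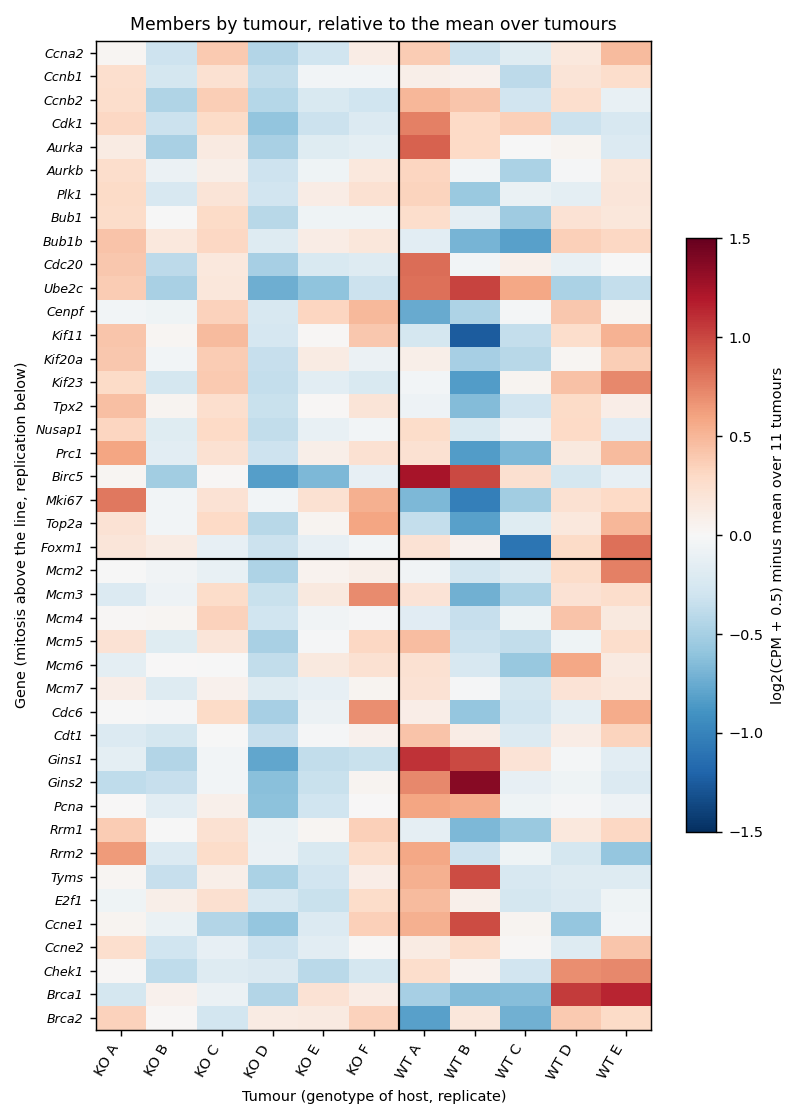
Level of each of the 42 members (rows, mitosis above the horizontal line and replication below it) in the 6 KO and 5 WT tumours (columns), as log2(CPM + 0.5) minus the gene's mean over the 11 tumours. KO D is lowest of the KO tumours for 37 members, and the WT columns hold the strongest colours of both signs, with the spread wider in WT for 40 members.

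The WT tumours did not rank the members in 1 order. The standard deviation of log2 values was wider among WT than among KO tumours for 40 of 42 members (95.2%), with medians of 0.43 and 0.26, beside 84.9% of all tested genes. In WT B the deviations spread most (SD over members 0.62), from the lowest of all 11 tumours for 13 members to the highest of all for 4. Over all tested genes WT B also had the widest spread (SD 0.885), and was the lowest of all for 20.8% and the highest for 26.7%. WT A was the highest of all for 13 members, and for 8.67% of all tested genes.

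The direction of the difference went with exonic length, the bases covered by all annotated exons of a gene. Exonic length in bases and the log2 fold change had a Spearman rho of 0.47 across the 42 members, 0.61 across the mitotic and 0.29 across the replication genes, beside 0.38 across 16527 tested genes with a length. These genes share their libraries and are not independent. Of 5 members under 2500 bases 1 had a positive value, of 24 between 2500 and 5000 bases 6, and of 13 at 5000 bases or over 8. Among all tested genes 26.6%, 45.8% and 66.9% of those classes were positive. Mki67 has 10061 bases of exon and Gins1 1516. With a length offset fitted for each tumour rho fell to 0.05 across the members, Mki67 had a log2 fold change of 0.38 and Gins1 of -0.49, and the members at an unadjusted p under 0.05 were Birc5, Mcm2, Gins1, Gins2 and Chek1, all lower (5 of 42, against 9.16% of all genes higher and 13.9% lower). Without WT A and WT B rho was 0.09, and the members at that threshold were Chek1 and Brca1, both lower (2 of 42, against 6.52% of all genes higher and 7.42% lower). Without WT A, WT B and WT C rho was -0.28 across the members and -0.16 across all tested genes with a length. Longer genes thus tended to be lower in KO in that fit. At that threshold 1 member was higher (Rrm2) and 6 were lower (Kif23, Foxm1, Mcm2, Cdt1, Chek1 and Brca1), against 8.21% and 9.01%. Chek1 was at an unadjusted p under 0.05 and lower in KO in each of these 3 fits. The part of RNA quality in the differences was not tested beyond these fits.

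**Figure D5:**
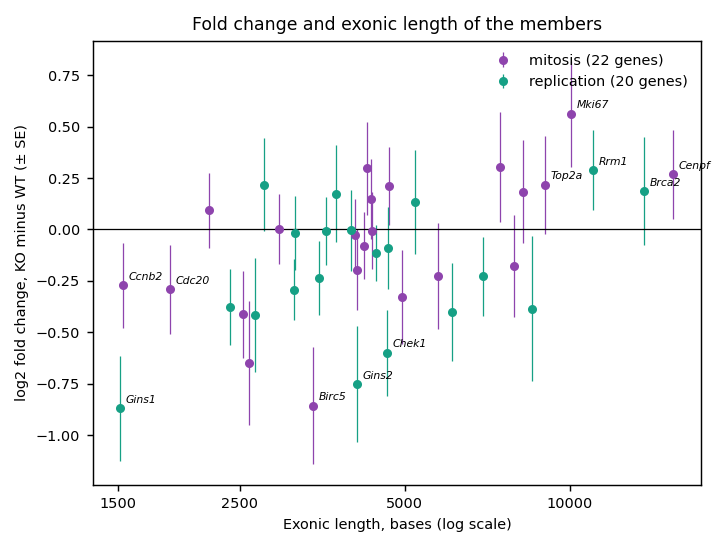
Log2 fold change, KO minus WT (bars of 1 standard error, n = 6 KO and 5 WT tumours), against exonic length on a log axis for the 22 mitotic (purple) and 20 replication members (green). Spearman's rho across the 42 points is 0.47, with 8 of the 13 members at 5000 bases or over above 0 and 1 of the 5 under 2500 bases.

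Further genes of the same processes were counted in the same way. Of 30 further mitotic genes none passed an adjusted p of 0.05, 1 was higher and 6 lower at an unadjusted p under 0.05 (8.57% and 15.5% of all tested genes), and the median log2 fold change was 0.04. Of 40 further replication genes none passed, 1 was higher and 11 lower at that threshold, and the median was -0.18. Of 30 G1 cyclins, kinases, E2F and pocket proteins and their inhibitors none passed, 5 were higher and 4 lower, and the median was 0.02. Groups that did not overlap were found for 2 replication genes, both lower in KO, and for 3 of the G1 genes (1 higher, 2 lower), against 1.59% of all tested genes higher and 2.01% lower. The 3 genes of each list with the smallest p are given next.

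Pttg1 (securin, the inhibitor of separase) measured 23.3 to 38.7 CPM in KO and 83.8, 83.4, 64.6, 31.6 and 36.3 CPM in WT A to E. Its log2 fold change was -1.07 (edgeR SE 0.27 and adjusted p = 0.0869), and -0.25 without WT A, WT B and WT C. Cenpa, the centromeric histone, had 47.3 to 80.6 CPM in KO and 53.7 to 146 CPM in WT tumours, with a value of -0.68 (SE 0.27) that turned to 0.12 without those 3 tumours. Kif4, a chromosome-bound kinesin, had 20.4 to 33.0 CPM in KO and 8.68 to 21.3 CPM in WT tumours, a value of 0.77 (SE 0.25) and of 0.39 without them.

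Rpa3, the smallest subunit of the single-strand binding protein, had no overlap between KO (21.2 to 29.4 CPM) and WT A to E (55.3, 101, 63.4, 35.1 and 31.0 CPM). Its log2 fold change was -1.19 (edgeR SE 0.27 and adjusted p = 0.0786), and -0.40 without WT A, WT B and WT C. Pold2, a subunit of DNA polymerase delta, also had no overlap, at 32.9 to 48.2 CPM in KO and 51.15 to 74.5 CPM in WT tumours (-0.56, SE 0.16, and -0.40 without those 3 tumours). Dut, which removes dUTP, had 45.4 to 81.9 CPM in KO and 64.9 to 159 CPM in WT tumours (-0.85, SE 0.25, and -0.19 without them).

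The kinase Pkmyt1, which inhibits Cdk1, had KO values of 20.6 to 33.1 CPM under all WT values (34.3 to 51.4 CPM). Its value was -0.64 (SE 0.18), and -0.36 without WT A, WT B and WT C. E2f2 had KO values of 15.8 to 28.4 CPM over all WT values (4.92 to 13.8 CPM), with 0.87 (SE 0.26), and 0.69 without those 3. E2f4, a repressive E2F factor and the other gene without overlap, had 66.9 to 81.0 CPM in KO and 82.6 to 113 CPM in WT tumours (-0.35, SE 0.13). Tfdp1, the dimer partner of E2F proteins, had 114 to 131 CPM in KO and 120.2 to 219.5 CPM in WT tumours (-0.50, SE 0.16, and -0.60 without the 3). Ccnd1, the cyclin D1 that drives G1, measured 408 to 592 CPM in KO and 409, 243, 423, 540 and 679 CPM in WT A to E. Its log2 fold change was 0.10 (edgeR SE 0.24 and adjusted p = 0.822), and -0.30 without WT A, WT B and WT C.

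Of the 10 genes named by rule, Rpa3, Pttg1, Dut, Pold2, Pkmyt1 and Kif4 passed an adjusted p of 0.05 without WT E, and those 6 and E2f2 passed in DESeq2, settings whose shares of all genes are given above. Rpa3, Pttg1 and Dut passed without WT D, where 1.21% of all genes were called higher and 3.87% lower. Rpa3 passed with the length offset, where the shares were 0.411% and 0.169%.

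No marker of any cell type passed an adjusted p of 0.05, and the counts at an unadjusted p under 0.05 that follow stand beside 8.57% of all tested genes higher and 15.5% lower. All 8 carcinoma epithelium markers had negative log2 fold changes, 3 at an unadjusted p under 0.05, with sums of 2725 to 5617 CPM in KO and 3108 to 9488 CPM in WT tumours. All 8 markers of neutrophils and their precursors were positive, 6 at that threshold, with sums of 251 to 2875 CPM in KO and 153 to 953 CPM in WT tumours, and Elane was at 0 in at least 1 tumour. All 6 B cell markers were positive at that threshold, with sums of 35.2 to 106.5 CPM in KO and 6.34 to 32.4 CPM in WT tumours. Single B cell markers without overlap numbered 3 of 6, against 1.59% of all tested genes higher. Of 6 macrophage markers 2 were higher and of 6 erythroid markers 1, while of 8 fibroblast, 6 endothelial and 6 T cell markers none reached that threshold. Of 6 acinar markers 3 could be tested and 1 was lower, and of 6 islet markers 1 could be tested and did not reach it. Acinar and islet markers were high in single tumours, up to 1714 CPM and 306 CPM in WT E, and of the 6 in each list 3 (Cpa1, Cel and Pnlip) and 5 (Ins1, Ins2, Gcg, Sst and Ppy) were at 0 in at least 1 tumour. The part of these cells in the values of the division genes was not tested.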

How the data were processed

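Total RNA from pieces of 11 tumours kept in RNAlater was made into strand-specific libraries (NEB Next Ultra II Directional) and sequenced. Per the submitters' processing notes, reads were trimmed with Trimmomatic, aligned to mm10 with HISAT2 2.1.0 and counted per gene with HTSeq 0.11.2. The authors deposited raw gene counts, which were used unless stated otherwise, and a table of normalised values (signal). The latter holds the counts divided by 1 size factor per tumour (0.514 in WT B to 1.42 in WT E). It was used for that check and for a recount of members without overlap, which stayed at 0.

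Tumours were grouped by the host genotype in their titles. In R 4.3.3, counts were fitted with edgeR 4.0.16 (TMM, genes kept by filterByExpr with a minimum count of 10, quasi-likelihood test, KO against WT with no covariate), and p-values were adjusted over all 16536 tested genes by the Benjamini-Hochberg method. CPM values are TMM-normalised. Ribosomal RNA is the share of Gm42418, mt-Rnr1 and mt-Rnr2. The fit was tested on simulated data. Alternatives were DESeq2 1.42.0 and its size factors, other low-count filters, a block on replicate letter, the ribosomal RNA share as covariate, a gene length offset, and each tumour left out. The fits without WT A and WT B, and without WT A, WT B and WT C, were chosen after seeing the data, by the length trend of those tumours. The members, the gene lists and the tests were chosen with earlier results of these data known. Values were given in full for genes picked by name (6 mitotic, 7 replication) and, in each class, for the 4 members with the smallest p and the 2 with the largest change in each direction, and of each further list the 3 genes with the smallest p and Ccnd1 were named. Foxm1 and Brca1, also given in full, and E2f4 were chosen after their values were seen. Promoter windows are those of RefSeq on GRCm38.p6, which is also the build of GENCODE M21. Tumours of a group are separate animals. Shares of promoters carry Wilson 95% intervals, which reflect counting error alone.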

Additional observations from a re-analysis of the deposited data

Results flagged for a closer look

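Of 84 groups (42 members in KO and in WT tumours), 2 held a tumour farther from the others than Dixon's 95% limit, where chance alone flags about 1 in 20 groups, or 4.2 here. Cdc20, the activator of the anaphase-promoting complex, measured 106 CPM in WT A, while the other 4 WT tumours lay between 54.8 and 62.1 CPM. Mcm2, a helicase subunit, measured 64.3 CPM in KO D, while the other 5 KO tumours lay between 81.7 and 93.8 CPM. KO D was also the lowest KO tumour for 36 other members.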

How the results depend on the processing

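With 6 and 5 tumours and standard errors of 0.14 to 0.35 on the log2 scale, small differences of single genes could not be seen. The median log2 fold change ran from -0.11 to 0.053 over all alternatives for the mitotic members and from -0.24 to -0.074 for the replication members, moving by less than the spread between tumours. At an adjusted p of 0.05, DESeq2 called 1 replication member lower (Gins1). With each tumour left out in turn, calls ran from 0 to 1 lower in either class (Birc5 and Gins1, both without WT E), where all genes called rose from 3 higher and 0 lower to 608 higher and 1248 lower. At an unadjusted p under 0.05, the mitotic counts with each tumour left out ran from 0 to 1 higher and from 1 to 3 lower, and the replication counts from 0 to 1 higher and from 2 to 5 lower. Mki67 lost that threshold, leaving 0 mitotic members higher, when KO A, KO C, KO E, KO F, WT A, WT B or WT C was left out alone. Without KO A its unadjusted p in edgeR was 0.111. It also lost the threshold with the ribosomal RNA share as covariate, the length offset, the letter block, and without WT A and B or WT A, B and C. With that covariate Birc5 (unadjusted p 0.0658 in edgeR) and Gins2 (0.212, log2 fold change -0.28) lost it too, and Kif23 (-0.44) and Mcm2 (-0.39) reached it. Of mitotic members lower at that threshold there were 0 without WT A and B, 2 without WT A, B and C, and 2 with the block, and 1 replication member was higher without WT A, B and C. In the 100 bases before the start alone, CHR letters were in 35.3% of mitotic windows, against 6.29% of all promoter windows. E2F letters were there in 0% of mitotic and 6.25% of replication windows, against 0.692% of all.

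Replicate letters name different animals in KO and WT and do not pair them. Deviations of same-letter tumours had correlations of 0.12, 0.07, -0.14, 0.10 and 0.03 (A to E), and only A was closest to its own letter. With the block, members called stayed at 0, Mki67 and Chek1 lost the unadjusted p under 0.05 (0.0688 and 0.0602), Ube2c reached it (0.0314), and Aurkb (-0.019), Bub1 (0.018) and Mcm4 (0.012) changed sign.

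The values that changed sign are given next, and the cause was not tested. Without WT A, B and C the log2 fold changes were 0.19 for Cdk1, -0.056 for Aurkb, -0.15 for Bub1b, 0.21 for Ube2c, -0.070 for Cenpf, -0.19 for Kif11, -0.11 for Kif20a, -0.072 for Tpx2, -0.18 for Prc1, -0.19 for Top2a, -0.11 for Mcm3, -0.14 for Cdc6, -0.072 for Rrm1, 0.070 for Tyms, 0.15 for E2f1, 0.18 for Ccne1, -0.22 for Brca2, 0.12 for Cenpa and -0.30 for Ccnd1. Without WT A and B they were 0.030 for Bub1, -0.043 for Top2a, 0.060 for Mcm5, 0.073 for Tyms, 0.19 for E2f1, 0.039 for Ccne1 and -0.16 for Ccnd1. The ribosomal RNA covariate gave -0.030 for Aurkb, -0.065 for Plk1, -0.0043 for Kif20a, -0.049 for Prc1, -0.015 for Top2a, -0.041 for Mcm3, -0.064 for Cdc6, 0.0081 for E2f1 and -0.15 for Ccnd1. The length offset gave 0.018 for Ccnb2, -0.0087 for Cenpf, -0.0097 for Prc1, 0.015 for Mcm4, 0.061 for E2f1 and -0.090 for Brca2. DESeq2 gave 0.012 for Bub1, 0.0058 for Mcm4, 0.014 for Mcm5 and 0.0025 for E2f1, and its size factors in edgeR gave 0.0010 for Bub1 and 0.0034 for Mcm5. Without a low-count filter the values were 0.042 for Bub1, 0.021 for Nusap1, 0.034 for Mcm4, 0.043 for Mcm5 and 0.035 for E2f1, and with at least 10 counts in every tumour 0.0008 for Mcm5. With each tumour left out in turn, the signs turned within -0.10 to 0.091 for Aurkb, -0.012 to 0.20 for Plk1, -0.12 to 0.069 for Bub1, -0.35 to 0.0074 for Kif23, -0.10 to 0.052 for Nusap1, -0.42 to 0.0002 for Foxm1, -0.094 to 0.12 for Mcm4, -0.0885 to 0.13 for Mcm5, -0.22 to 0.068 for Mcm6, -0.023 to 0.33 for Cdc6, -0.083 to 0.12 for E2f1 and -0.058 to 0.29 for Ccnd1.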
